A study of Mus musculus with 6 samples.

Results

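The collagen genes are those whose symbol has the form Col, a type number, a and a chain number. In the platform's probe annotation 82 probe sets carried such a symbol and no other, and they belonged to 42 genes, of 18193 genes with a probe set of their own. They were divided into 11 fibrillar collagens, 8 collagens of the basement membrane (the 6 type IV chains, Col15a1 and Col18a1) and 23 others. For each gene the brightest probe set stood for the gene, and 35 of the 42 lay above the filter that left out the dimmest 40% of probe sets, namely 8 fibrillar, 8 basement membrane and 19 other collagens. The 7 below it, Col2a1, Col11a2, Col24a1, Col6a4, Col6a5, Col9a2 and Col10a1, were not tested.

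Collagens are matrix proteins whose chains wind around each other along repeats that begin with glycine. Fibrillar collagens form the banded fibres of connective tissue, type IV chains form the sheet-like network of basement membranes, and the remaining types bind to fibrils, form beaded or hexagonal networks or span the cell membrane. In the choroid plexus a secretory epithelium rests on a basement membrane over a stroma that holds fibroblasts and fenestrated capillaries.

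RNA came from preparations named choroid plexus epithelium and taken from whole brain of B10.PL mice, 3 wild type (WT) and 3 RAG-/- by the sample descriptions, with 1 array each. RAG proteins join antigen receptor genes, and the labels do not say which Rag gene was disrupted, nor give age, sex, the number of animals in a preparation or whether preparations came from separate animals, so the p-values rest on array-to-array spread that may be only technical. Each title carries a code that 1 WT and 1 RAG-/- array have in common, and these 3 pairs are numbered here like the replicates. In pair 1 the descriptions state that the samples were reversed and contradict the genotype in both titles. Every difference is RAG-/- minus WT by description unless the titles are named, and values are log2(intensity + 16) after quantile normalization.

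The labels could not be checked on the targeted genes. Rag1 was a dim gene, at percentile 27.1, with 6.54, 4.16 and 4.35 in WT replicates 1, 2 and 3 and 4.60, 6.92 and 6.31 in RAG-/- replicates 1, 2 and 3. The 3 arrays titled RAG were thus the high ones, and the difference was 0.93 by description (exact permutation p = 0.3, two-sided) and 2.22 by title (exact permutation p = 0.1, the smallest that 3 against 3 arrays allow). For Rag2 it was 0.05 (exact permutation p = 1) and -0.68 (exact permutation p = 0.6). RAG-/- replicate 2 was far from the rest, with a first principal component score of 106 against -69.3 to 31.2 for the other 5 arrays. It had the lowest mean of the 9 epithelium markers (12.87, against 13.59 to 13.81 elsewhere), the lowest mean of the 12 fibroblast markers (8.06, against 8.96 to 10.26) and the highest mean of the 6 neuron markers (12.20, against 9.40 to 11.62). The epithelium markers were bright in every array, as the tissue label has it, and markers of fibroblasts, neurons and oligodendrocytes were present too.

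Promoters are shown for Col3a1 and Col1a2, chosen after their values were seen, because they are the fibrillar genes in which all WT arrays lay above all RAG-/- arrays by description. Each line gives the 250 bases before the gene's start from RefSeq, build GRCm38.p6, plus strand, at chr1:45311288-45311537 for Col3a1 and chr6:4505368-4505617 for Col1a2. Capitals mark matches to the TATA box letters TATAAA, to the CCAAT box and to the GC box letters GGGCGG, each searched on both strands.

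Col3a1: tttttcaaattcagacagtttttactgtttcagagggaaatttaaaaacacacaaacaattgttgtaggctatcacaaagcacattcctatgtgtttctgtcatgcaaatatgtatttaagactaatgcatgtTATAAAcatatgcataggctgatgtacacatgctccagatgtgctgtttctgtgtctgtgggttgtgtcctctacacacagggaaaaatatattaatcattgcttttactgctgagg
Col1a2: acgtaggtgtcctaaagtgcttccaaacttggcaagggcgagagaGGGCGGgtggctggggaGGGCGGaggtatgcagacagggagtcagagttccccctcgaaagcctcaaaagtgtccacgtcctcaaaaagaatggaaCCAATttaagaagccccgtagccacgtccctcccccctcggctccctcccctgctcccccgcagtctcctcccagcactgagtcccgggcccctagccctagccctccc

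The array values of these genes correlated at r = 0.96 over 6 arrays, and the windows had none of the 3 motifs in common. The Col3a1 window had 35.2% G and C and held TATAAA once, starting 117 bases before the gene's start. The Col1a2 window had 62.0% G and C and held CCAAT once, starting 109 bases before the start, and GGGCGG at 205 and 188 bases. Among the 36 windows of 33 collagen genes with an entry, GGGCGG stood in 58.3%, CCAAT in 36.1% and TATAAA in 13.9%, and among all 32851 windows in 32.7%, 33.8% and 12.4%. The collagen windows were also richer in G and C, with a median of 59.0% against 52.4%, and GGGCGG holds only these letters. The matches are letters in a window and say nothing of a factor.

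The 3 brightest collagen probe sets belonged to network-forming and fibril-associated types. Col8a1, a short chain of hexagonal networks, was at percentile 98.8 over all probe sets, and its partner Col8a2 and the fibril-associated chain Col9a3 were both at 96.7. Col1a2, the second chain of type I collagen, was at 96.3 and Col3a1 at 89.1. Of the basement membrane group Col4a5 was brightest, at 91.0, followed by Col18a1 (84.3), whose end fragment is endostatin, and Col4a1 (83.3). Brightness depends on each probe set's own response, so these percentiles are not an order of transcript levels.

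**Figure D1:**
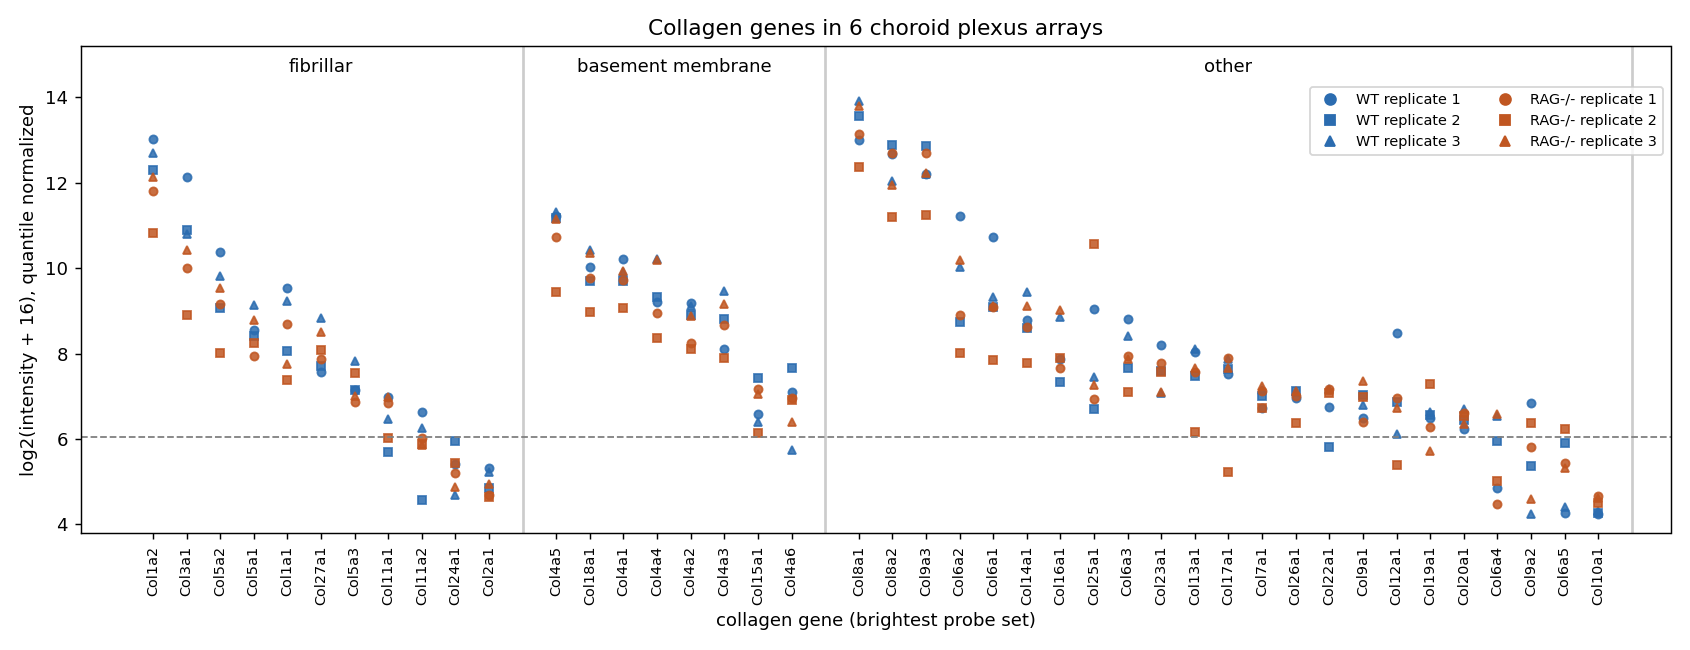
Value of each of the 42 collagen genes in the 6 arrays, as log2(intensity + 16) after quantile normalization, by class and in order of the mean. Colour gives the group by description, marker shape the pair, and the dashed line the lowest mean that passed the filter (6.06). RAG-/- replicate 2 was lowest in 22 of the 35 genes above it.

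The extreme values of the collagens lay in few arrays. RAG-/- replicate 2 held the lowest value of 22 of the 35 genes (62.9%, against 31.1% of all 13537 genes above the filter), and of 7 of the 8 basement membrane genes. WT replicates 1 and 3 each held the highest value of 11 genes (31.4% for either, against 10.6% and 19.4% of all genes). The other 13 maxima were spread over WT replicate 2 (5 genes), RAG-/- replicate 3 (4), RAG-/- replicate 1 (2) and RAG-/- replicate 2 (2).

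By description, no collagen passed the threshold. With limma, 0 of the 27023 probe sets tested had an adjusted p under 0.05 (0%), the smallest being 1, and the block for the pair also gave 0 (0%). Of the 35 collagens, 27 had a difference below 0 (77.1%, against 51.1% of all genes), with a median of -0.37 against -0.01 over all genes. In 4 collagens all RAG-/- arrays lay below all WT arrays (11.4%, against 1.41% of genes), namely Col1a2, Col3a1, Col4a2 and Col4a5, and in 0 they lay above (1.69% of genes). Of these, 3 had a further probe set above the filter, and for Col3a1 alone the groups were apart on it too. A dimmer probe set of Col9a1 had all RAG-/- arrays above all WT arrays, with a difference of 0.41. In all, 20 collagens had several probe sets above the filter, and in 3, Col5a2, Col4a4 and Col27a1, the sign of the difference varied between them. An unadjusted limma p under 0.05 was found for 2 collagens (0.711% of probe sets) and, with the block, for 9 (2.35% of probe sets), all of them with a difference below 0. In bulk tissue, fewer cells of a type and less RNA per cell cannot be told apart.

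Among the fibrillar collagens, 6 of 8 had a difference below 0, with a median of -0.62. Col3a1, the type III chain of elastic connective tissue, measured 12.13, 10.88 and 10.79 in WT replicates 1, 2 and 3, and 10.003, 8.91 and 10.43 in RAG-/- replicates 1, 2 and 3. The groups did not overlap, but WT replicate 3 and RAG-/- replicate 3 were only 0.36 apart. The means were 11.27 ± 0.75 in WT and 9.78 ± 0.78 in RAG-/- (SD, n = 3), a difference of -1.49 (SE 0.50, limma adjusted p = 1, unadjusted p = 0.0171). Without RAG-/- replicate 2 it was -1.05, and likewise without WT replicate 1.

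Col1a2 showed the same order at a higher brightness. It measured 13.02, 12.30 and 12.68 in WT and 11.80, 10.82 and 12.12 in RAG-/- replicates 1, 2 and 3, so the lowest WT array lay 0.18 above the highest RAG-/- array. The difference was -1.08 (SE 0.37, limma adjusted p = 1, unadjusted p = 0.0174), and -0.70 without RAG-/- replicate 2. On its dimmer probe set Col1a2 differed by -1.27, with overlap between WT replicate 2 at 10.09 and RAG-/- replicate 3 at 10.34. As deposited, its linear intensity ran from 1829 in RAG-/- replicate 2 to 8077 in WT replicate 1.

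Its partner chain Col1a1 measured 9.54, 8.05 and 9.22 in WT and 8.69, 7.39 and 7.75 in RAG-/-. Here the groups overlapped, with WT replicate 2 below RAG-/- replicate 1, and the difference was -0.996 (SE 0.49, limma adjusted p = 1). Within the pairs it was -0.85, -0.66 and -1.47, with the widest gap in pair 3, where that of Col3a1 and Col1a2 was narrowest. Col5a2, a type V chain of thin fibrils, measured 10.39, 9.07 and 9.82 in WT and 9.16, 8.003 and 9.53 in RAG-/-, with overlap and a difference of -0.86 (SE 0.49, limma adjusted p = 1). The dimmer probe set of Col5a2 did not show this, with a difference of 0.06, of 0.90 in pair 2, and an r with Dcn of 0.18. Its neighbour in the fibril, Col5a1, differed by -0.38, from 8.56, 8.41 and 9.13 to 7.93, 8.25 and 8.78.

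In the remaining fibrillar genes the differences were small against their spread. Col27a1 measured 7.56, 7.71 and 8.83 in WT and 7.86, 8.08 and 8.51 in RAG-/-, a difference of 0.12. Col11a1, a chain of cartilage fibrils, was dim, at 6.99, 5.69 and 6.46 in WT and 6.83, 6.03 and 6.99 in RAG-/-, with the widest positive difference of the class, 0.24. Col5a3 differed by -0.24.

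**Figure D2:**
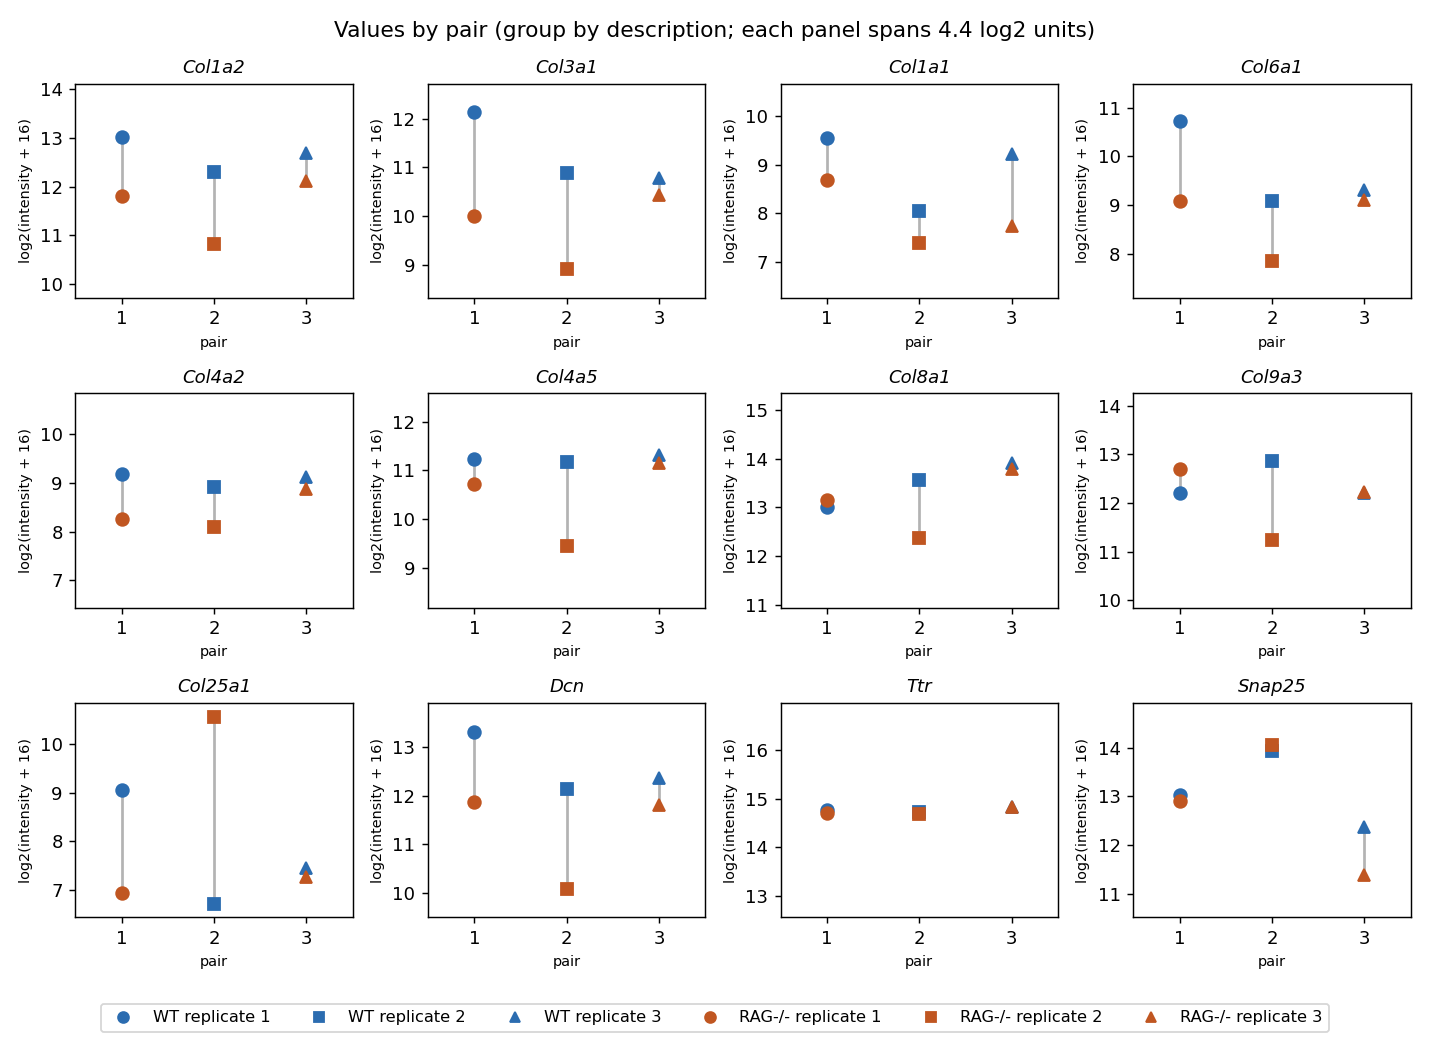
Log2(intensity + 16) of 9 collagens and of Dcn, Ttr and Snap25 in the 3 pairs, WT in blue and RAG-/- in orange by description, with a grey line joining the arrays of a pair. Col1a2, Col3a1 and Col1a1 are lower in the RAG-/- array of every pair, as Dcn is, while Col8a1 and Col9a3 part widely only in pair 2 and Col25a1 parts in opposite directions in pairs 1 and 2.

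All 8 basement membrane collagens had a difference below 0, with a median of -0.36. Col4a5, which assembles with Col4a3 and Col4a4, measured 11.23, 11.17 and 11.32 in WT and 10.73, 9.45 and 11.16 in RAG-/-. The WT arrays were close together and RAG-/- replicate 3 lay 0.01 below the lowest of them, so the groups were apart by less than the spread within either. The difference was -0.80 (SE 0.43, limma adjusted p = 1), and -0.30 without RAG-/- replicate 2. On its dimmer probe set Col4a5 differed by -0.33 and the groups overlapped, since RAG-/- replicate 3, at 8.73, was the highest array.

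Col4a2, which pairs with Col4a1 in the ubiquitous type IV network, measured 9.18, 8.91 and 9.11 in WT and 8.25, 8.10 and 8.87 in RAG-/-. The groups did not overlap, with a gap of 0.03, and the difference was -0.66 (SE 0.32, limma adjusted p = 1). It was -0.50 without RAG-/- replicate 2. Col4a1 measured 10.22, 9.70 and 9.90 in WT and 9.73, 9.07 and 9.92 in RAG-/-, with overlap and a difference of -0.37. Its other probe set, dimmer, differed by -0.56 but ranked the arrays otherwise, with 8.53 in RAG-/- replicate 2 and 7.43 in RAG-/- replicate 1.

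Col4a3 and Col4a4 had their highest values in pair 3. Col4a4 measured 9.20, 9.33 and 10.22 in WT and 8.94, 8.35 and 10.18 in RAG-/-, and Col4a3 measured 8.12, 8.80 and 9.47 in WT and 8.66, 7.89 and 9.16 in RAG-/-. For both, the arrays of pair 3 lay above the other 4 in either group, and the differences were -0.42 and -0.22. Col18a1 had the same highest pair, at 10.02, 9.71 and 10.43 in WT and 9.76, 8.96 and 10.36 in RAG-/-. Col4a6 was lowest in pair 3 (5.74 in WT and 6.39 in RAG-/-), and its 2 probe sets disagreed, with differences of -0.08 and -1.25. Without RAG-/- replicate 2 the median of the class was -0.07 and 5 of 8 genes were below 0.

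Of the 19 other collagens 13 had a difference below 0, with a median of -0.37, which was -0.078 without RAG-/- replicate 2, and in none were the groups apart. The 3 measured type VI chains, which build beaded filaments around cells, had a median of -0.97. Col6a1 measured 10.73, 9.08 and 9.31 in WT and 9.09, 7.85 and 9.11 in RAG-/-, a difference of -1.03 (SE 0.53, limma adjusted p = 1). WT replicate 1 stood high and RAG-/- replicate 2 low, while WT replicate 2 lay between RAG-/- replicates 2 and 1, so the groups overlapped. Col6a2 measured 11.23, 8.75 and 10.03 in WT and 8.91, 8.005 and 10.19 in RAG-/-, a difference of -0.97 that was -0.33 on its dimmer probe set, and Col6a3 differed by -0.65.

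The bright network and fibril-associated genes parted most in pair 2. Col8a1 measured 13.002, 13.57 and 13.90 in WT and 13.15, 12.37 and 13.78 in RAG-/-, so its within-pair differences were 0.15, -1.19 and -0.12. Col8a2 measured 12.67, 12.89 and 12.05 in WT and 12.70, 11.19 and 11.95 in RAG-/-, with 0.03, -1.70 and -0.09. Col9a3 measured 12.21, 12.86 and 12.21 in WT and 12.70, 11.24 and 12.22 in RAG-/-, with 0.49, -1.62 and 0.02. On its second probe set, nearly as bright, the within-pair differences were -0.14, -1.97 and 0.01. Thus all 3 were lowest in RAG-/- replicate 2, the array with the lowest epithelium marker mean, and the part of epithelial content in this was not tested.

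Col17a1, a membrane-spanning collagen of epithelial attachment, had 1 array far below the others, with 7.53, 7.64 and 7.88 in WT and 7.89, 5.23 and 7.65 in RAG-/-. Its difference was -0.76, and 0.09 without RAG-/- replicate 2. Col14a1, a fibril-associated collagen, measured 8.79, 8.61 and 9.43 in WT and 8.62, 7.78 and 9.11 in RAG-/-, a difference of -0.44. Col22a1 was dim and had the widest positive difference by description, 0.56, from 6.75, 5.82 and 7.16 to 7.17, 7.07 and 7.16.

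Col25a1, a membrane-spanning collagen made by neurons, was highest in RAG-/- replicate 2, where most collagens were lowest. It measured 9.05, 6.71 and 7.44 in WT and 6.93, 10.56 and 7.26 in RAG-/-, with differences of -2.11, 3.85 and -0.18 in pairs 1, 2 and 3. The arrays with high values were RAG-/- replicate 2 and WT replicate 1, which share neither pair nor described genotype but are both titled RAG. Snap25, a synaptic gene, was at 14.05 in the first and 13.02 in the second, but at 13.94 in WT replicate 2, where Col25a1 was lowest. Its other probe set lay below the filter.

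**Figure D3:**
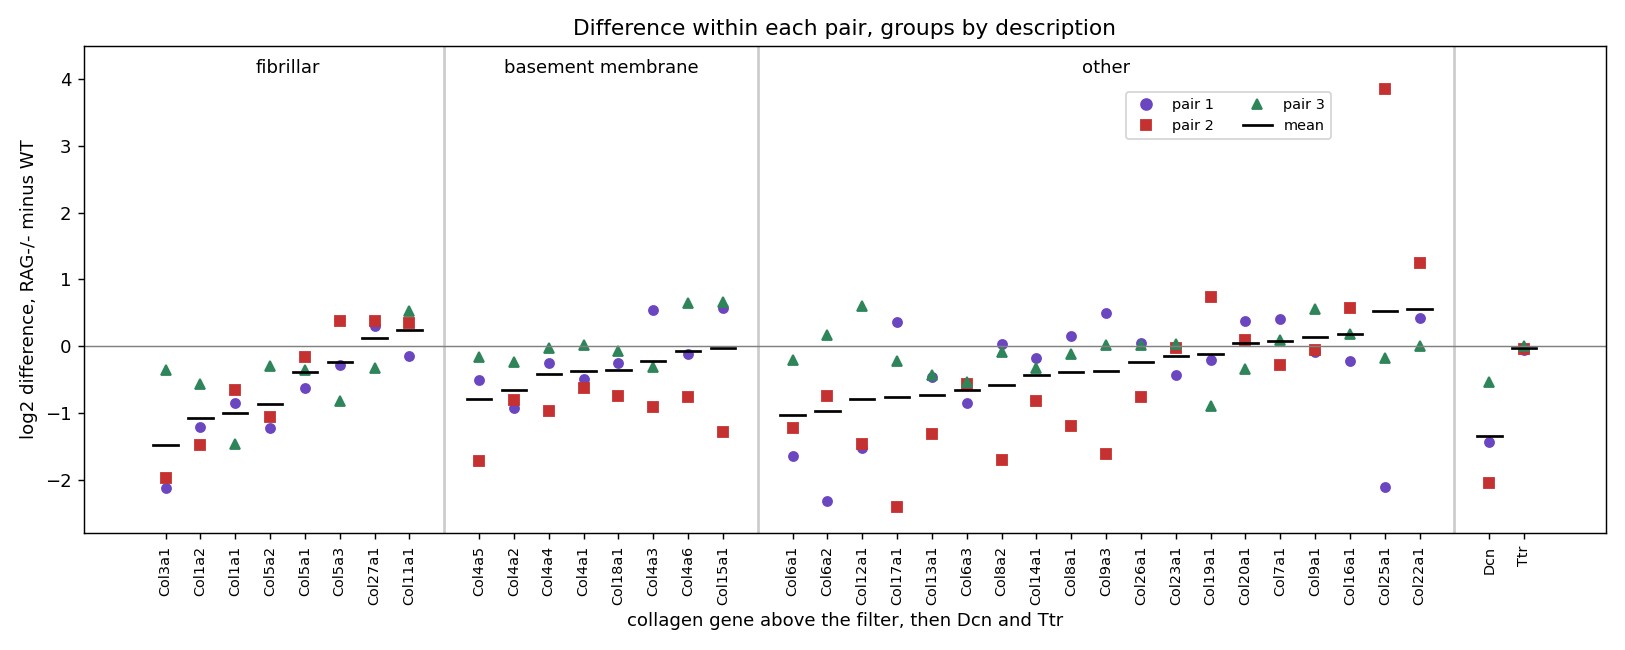
Log2 difference RAG-/- minus WT by description within pair 1 (circles), pair 2 (squares) and pair 3 (triangles) for the 35 collagens above the filter and for Dcn and Ttr, with the mean as a bar. In each class the genes run from the lowest mean difference to the highest, 13 genes lie below 0 in every pair, and Col25a1 holds the widest gap, 3.85 in pair 2.

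Within pairs, 13 of the 35 collagens were lower in the RAG-/- array of all 3 pairs (37.1%, against 11.3% of all genes), and 0 were higher in all 3 (9.75% of all genes). The 13 were Col1a1, Col1a2, Col3a1, Col5a1 and Col5a2 of the fibrillar class, Col4a2, Col4a4, Col4a5 and Col18a1 of the basement membrane, and Col6a1, Col6a3, Col13a1 and Col14a1. Of the 8 among them with several probe sets above the filter, 4 were lower in all pairs on each, namely Col1a2, Col3a1, Col5a1 and Col14a1, while Col5a2, Col4a4, Col4a5 and Col18a1 were not. The medians over the 35 genes were -0.25, -0.76 and -0.16 in pairs 1, 2 and 3. Fibrillar genes had their lowest median in pair 1 (-0.74), basement membrane genes (-0.86) and the others (-0.74) in pair 2, and pair 3 gave the smallest of every class (-0.35, -0.05 and -0.09).

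By title, where the arrays of pair 1 change sides, the class medians were nearer 0. On the brightest probe sets 14 of the 35 collagens, Col25a1, Col9a3, Col4a3 and Col17a1 among them, nevertheless had a larger difference than by description. A second Col9a3 probe set, at percentile 96.5, went the other way, with -0.70 by description and -0.61 by title. Of the 35 collagens 23 had a difference below 0 (65.7%, against 53.9% of all genes), with a median of -0.08, and the medians were -0.06, -0.22 and -0.09 for the fibrillar, basement membrane and other classes. In 0 collagens were the groups apart on the brightest probe set, where RAG-/- lay below WT in 2.53% of genes and above in 2.2%. On the Col8a1 probe set at percentile 91.2 all RAG-/- arrays lay below all WT arrays, with a difference of -0.72. With limma 0 probe sets passed (0%), and with the block 1 did (0.0037%), Pttg1, named after its values were seen. Col3a1 differed by -0.07, Col1a2 by -0.28, Col4a2 by -0.04 and Col4a5 by -0.46.

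An unadjusted limma p under 0.05 by title was found for 1 collagen, Col25a1 (1.23% of probe sets), and with the block for 2, Col25a1 and Col4a3 (4.14% of probe sets). Col25a1 differed by 1.93 (SE 0.73, limma adjusted p = 1), with overlap between RAG-/- replicate 3 at 7.26 and WT replicate 3 at 7.44. Col4a3 differed by -0.59 (SE 0.42, limma adjusted p = 1). Which of the 2 readings is right was not settled by these data, and the collagen differences depend on it.

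Many collagens followed Dcn across the arrays. Dcn encodes decorin, a proteoglycan that fibroblasts lay on collagen fibrils, and measured 13.32, 12.14 and 12.35 in WT and 11.88, 10.08 and 11.81 in RAG-/-. Over the 6 arrays Pearson's r with Dcn was 0.97 for Col1a2 and for Col3a1, 0.96 for Col6a1 and Col4a1, 0.95 for Col5a2 and 0.84 for Col1a1, and Spearman's rho was 0.94, 0.89, 0.77, 0.60, 0.77 and 0.94. In all, 13 collagens had r of at least 0.8. Of the 7 among them with several probe sets above the filter, Col1a2 and Col3a1 kept such an r on each, and Col4a1 (0.14), Col5a2 (0.18) and Col12a1 (-0.28) were the furthest from it on another. The median over the 35 was 0.64, against 0.03 over all genes. An r above 0.9 was found for 7 of the 35, against 1.26% of all genes, and the share of all genes at 0.8 was not computed. These arrays share pairs and are not 6 independent samples, so r is a description and carries no p.

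Leaving out RAG-/- replicate 2 lowered many of these values. Without it, r with Dcn over 5 arrays was above 0.6, a looser limit than 0.8, in 11 of the 13. It stayed above 0.8 only for Col3a1 (0.96), Col6a1 (0.96), Col1a2 (0.90), Col6a3 (0.87), Col5a2 (0.86) and Col4a1 (0.83). Between 0.6 and 0.8 lay Col1a1 (0.79), Col12a1 (0.77), Col6a2 (0.74), Col13a1 (0.69) and Col4a2 (0.65). For Col4a5 r was 0.47 and for Col17a1 -0.55. Of the 35 collagens 4 were above 0.9 without that array, against 0.982% of all genes. For 8 collagens r was above 0.3 with that array and below 0 without it, namely Col4a3, Col4a4, Col15a1, Col8a1, Col9a3, Col14a1, Col17a1 and Col26a1. The median over the 35 was 0.20 without that array.

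**Figure D4:**
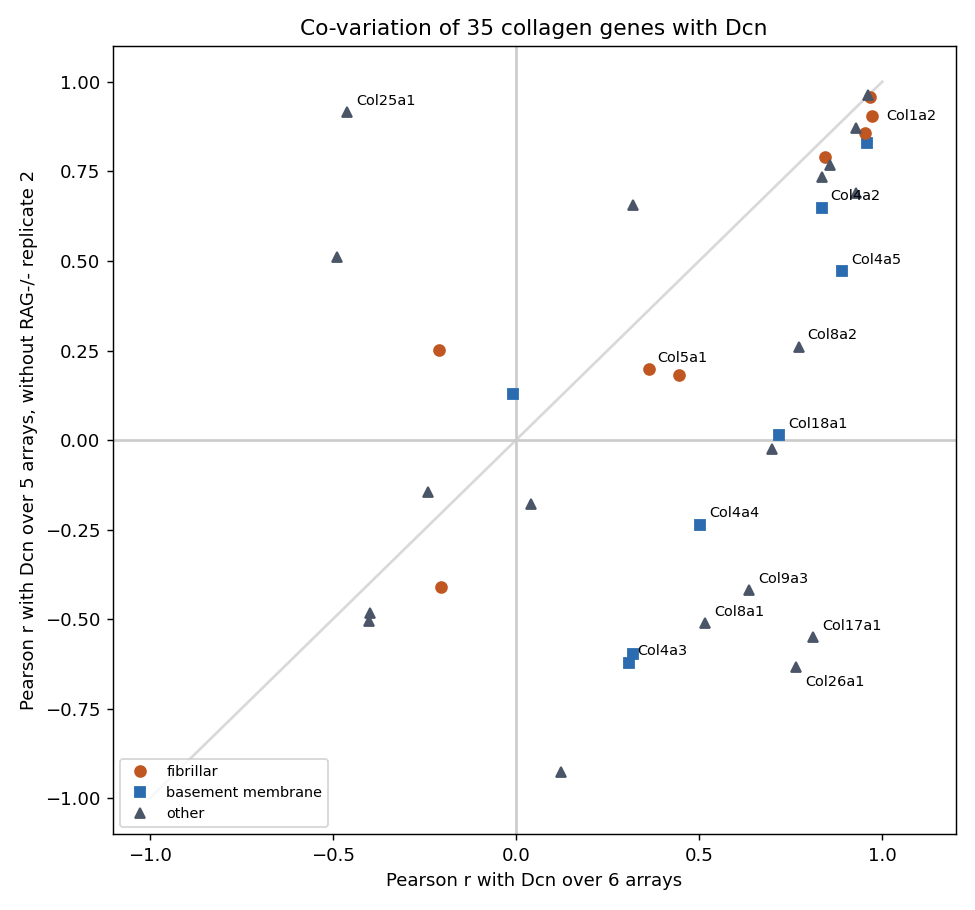
Pearson r with Dcn over the 6 arrays (horizontal) and over 5 arrays without RAG-/- replicate 2 (vertical) for the 35 collagens above the filter, by class. Col1a2 stays near the diagonal at 0.97 and 0.90, while Col8a1, Col9a3, Col4a3, Col17a1 and Col26a1 lie below 0 on the vertical axis.

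Ttr, the thyroid hormone carrier of the epithelium, ran only from 14.69 to 14.83 over the arrays, so its r rest on a range of 0.15 in a probe set at the top of the scale. The highest r with Ttr were those of Col4a4 (0.96), Col18a1 (0.92), Col14a1 (0.90), Col5a1 (0.89) and Col16a1 (0.87), and the median over the 35 was 0.56, against 0.09 over all genes. The other 3 probe sets of Ttr gave medians of -0.15, -0.50 and -0.43, and they correlated with the first at 0.29, -0.57 and -0.87. On the last of these, which ran from 13.40 to 14.74, Col4a4 was at -0.82 and Col18a1 at -0.76, and 32 of the 35 collagens had the opposite sign. The direction of co-variation with Ttr is therefore not settled by these arrays. With the mean of the 9 epithelium markers instead, which ran from 12.87 to 13.81, the highest were Col17a1 (0.97), Col26a1 (0.95), Col9a3 (0.93) and Col4a5 (0.87), with Col8a2 at 0.84 and Col8a1 at 0.74. Col25a1 was at -0.90 and Col19a1 at -0.81. All of these values include RAG-/- replicate 2, the array with the lowest epithelium mean.

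On the brightest probe sets, correlations between chains that assemble together ranged widely. The r over 6 arrays was 0.81 for Col1a1 with Col1a2, 0.83 for Col4a1 with Col4a2, 0.90 for Col4a3 with Col4a4, and 0.89, 0.94 and 0.91 among Col6a1, Col6a2 and Col6a3. It was 0.53 for Col5a1 with Col5a2 and 0.38 for Col8a1 with Col8a2, and the latter was -0.71 without RAG-/- replicate 2. These r used the brightest probe set of each gene. Another Col8a1 probe set, at percentile 91.2, was highest in WT replicate 2 (11.60), as Col8a2 was (12.89). The brightest Col8a1 probe set was highest in WT replicate 3 (13.90). Another Col5a1 probe set was lowest in RAG-/- replicate 2 (6.88), as Col5a2 was (8.003), while the brightest was lowest in RAG-/- replicate 1 (7.93). For these other probe sets r was not computed, so 0.53, 0.38 and -0.71 hold for the brightest probe sets only. Some of these genes are also neighbours. In GRCm38.p6 the RefSeq models of Col4a1 (chromosome 8, 11198423 to 11312889) and Col4a2 (11312805 to 11449287) overlap at their starts by 85 bases on opposite strands. Those of Col4a4 and Col4a3 on chromosome 1 overlap by 114 bases, and Col3a1 (45311538 to 45349706) and Col5a2 (45374331 to 45503282) on the same chromosome lie 24624 bases apart, with r of 0.92. Other neighbours gave values below 0 on their brightest probe sets. Col4a6 and Col4a5, 1274 bases apart on the X chromosome, had r of -0.17, and Col9a1 and Col19a1 on chromosome 1 had -0.21. The second Col4a6 probe set was lowest in RAG-/- replicate 2 (4.74), as Col4a5 was (9.45). The second Col9a1 probe set was highest in RAG-/- replicate 2 (6.97), as Col19a1 was (7.30). For these second probe sets r was not computed, so the sign between these neighbours is not settled.

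The genes that fold, modify and cross-link collagen chains had medians nearer 0 by description than the fibrillar collagens, a difference not tested, and by title the folding genes were further from 0 (-0.22 against -0.06). Of the 18 measured genes for folding and hydroxylation 12 were below 0 by description, with a median of -0.14, and 0 had an adjusted p under 0.05 with limma, as in each list of this paragraph. Serpinh1, the chaperone of procollagen, measured 11.11, 11.90 and 10.52 in WT and 11.58, 10.52 and 9.99 in RAG-/-, with overlap and a difference of -0.48. P4ha1, a prolyl hydroxylase subunit, differed by -0.20. Of the 10 genes for processing and cross-linking 7 were below 0, with a median of -0.31. Lox, which cross-links fibrils, differed by -0.59, and Sparc, a collagen-binding matrix protein, by 0.31, with its highest value, 13.55, in RAG-/- replicate 2.

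By title the groups were apart in 5 of the 28 genes of these 2 lists (2.53% of all genes lower and 2.2% higher), lower in RAG-/- for Colgalt1 (-0.34), Tmem38b (-0.55) and Pcolce2 (-0.88), an enhancer of procollagen cleavage, and higher for Mia3 (0.25) and the lysyl oxidase family member Loxl4 (0.85). Genes of matrix breakdown, proteases and their inhibitors, were below 0 in 10 of 10 by description, with a median of -0.42, and in 6 of 10 by title. Of the 7 collagen receptors 4 were below 0 (median -0.10). Of 14 laminins, nidogens and other basement membrane proteins 11 were below 0 (median -0.29), and in 1 of them, Nid1, which links laminin to type IV collagen, RAG-/- lay wholly below WT (1.41% of all genes). Nid1 measured 11.25, 9.63 and 8.93 in WT and 8.90, 8.57 and 8.54 in RAG-/-, a difference of -1.26 (SE 0.55, limma adjusted p = 1), with WT replicate 1 standing high.

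Markers of stromal, vascular and epithelial cells mostly lay below 0 by description, as the collagens did. All 12 fibroblast markers, Dcn among them and none a collagen, were below 0 by description (median -0.67), and their summed intensity was between 20570 and 30490 in WT and between 6742 and 17190 in RAG-/-. By title 7 of 12 were below 0 (median -0.10). Markers of pericytes and smooth muscle were below 0 in 7 of 8 (median -0.57), with sums between 3856 and 13830 in WT and between 3666 and 6645 in RAG-/-, and endothelial markers in 7 of 7 (median -0.35), with sums between 2684 and 4409 and between 1988 and 3638. By title 3 of 8 pericyte and smooth muscle markers (median 0.20) and 5 of 7 endothelial markers (median -0.14) were below 0. The epithelium markers were below 0 in 9 of 9 by description (median -0.16) and in 8 of 9 by title (median -0.35). Within pairs 1, 2 and 3 their medians were 0.16, -0.98 and 0.15, with 2, 9 and 2 of 9 below 0. Their sums were between 124600 and 149000 in WT and between 80670 and 159500 in RAG-/-. The 6 neuron markers had a median of 0.11 and sums between 10950 and 36880 in WT and between 7112 and 52910 in RAG-/-. The 5 oligodendrocyte markers were all above 0 (median 1.08), with sums between 30370 and 36480 and between 30920 and 67870. By title the neuron median was 0.02, and the oligodendrocyte markers were again all above 0 (median 1.24). In pair 1 by description 4 of the 5 oligodendrocyte markers were below 0. No list had a marker at 0. The part of cell content in the collagen differences was not tested.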

How the data were processed

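The authors deposited linear intensities for 45101 probe sets on 6 arrays. How they were made is not stated in the labels. By their values, each array's deposited intensities had a mean of 500.0 after 2% was trimmed at either end. The 64 controls were left out, and log2 of the deposited intensity + 16, which understates differences of dim probe sets, was quantile normalized because the 75th percentiles differed by 0.232. The lowest 40% by mean were left out. Symbols of 34741 of 34945 probe sets with 1 symbol were updated through the GRCm38.p6 gene table, and 0 collagen probe sets carried several symbols.

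Differences were tested with limma 3.58.1 in R 4.3.3 (eBayes with trend, two-sided, Benjamini-Hochberg over 27023 probe sets, threshold 0.05). The code was checked on simulated data whose noise was independent between arrays, without pairs and of the same size for every probe set. That check therefore does not measure power or error rates in these data. Within pairs the arrays' deviations from their group means had correlations of 0.29, 0.39 and 0.58, each over 0.1, and across pairs of -0.42 to 0.01, so the title codes were taken to pair the arrays. The collagens, lists and tests were chosen with earlier results of these data known. Array values were named for the 6 brightest genes of each class, those whose groups were apart, and the widest difference in either direction in a class by either reading. Other genes named with a value, such as Col5a3, were added after their values were seen. Alternatives were the intensities as deposited, pseudocounts of 1 and 64, no filter, the pair as a block, array weights, all probe sets of a gene, and leaving out each array. The number of arrays limits the precision.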

Additional observations from a re-analysis of the deposited data

How the results depend on the processing

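The direction by description held for the medians of the 3 collagen classes under every alternative run, while by title it did not. Leaving out 1 array at a time gave medians by description of -0.87 to -0.43 for the fibrillar, -0.62 to -0.07 for the basement membrane and -0.45 to -0.078 for the other collagens, each nearest 0 without RAG-/- replicate 2. By title the ranges were -0.30 to 0.24, -0.55 to 0.16 and -0.34 to 0.14. With the replicate block the pairing left the medians at -0.62, -0.36 and -0.37 by description, called 0 probe sets there and called 1 by title, of Pttg1. Array weights called 2 by title, both of Pttg1. Leaving out single arrays called 0 to 4 probe sets by description (4 without RAG-/- replicate 2, of Xist and 3 without a symbol). Xist differed by -4.78 there, and the 3 without a symbol by 7.89, 4.80 and 5.49. The labels do not give sex, and whether it differed between the groups was not tested. Array weights gave a fibrillar median by title of 0.62, and the cause was not tested. The median r with Dcn was 0.20 without RAG-/- replicate 2, and that with Ttr was 0.39 without it, 0.33 with the intensities as deposited, and -0.15, -0.50 and -0.43 with the other 3 Ttr probe sets. Rag2 differed by -0.082 with a pseudocount of 64. Over 23 named collagens 498 of 552 alternative values kept their sign, and 0 passed the threshold (smallest limma adjusted p = 0.614). The block and the run with no filter leave each gene's difference as it was. Values under these settings could therefore not change sign. With array weights the sign turned by description for Col25a1 (-0.64), Col4a3 (0.12) and Col9a3 (0.018), and by title for Col1a1 (0.69), Col1a2 (0.67), Col3a1 (1.33), Col5a2 (0.92), Col4a1 (0.38), Col4a2 (0.45), Col4a5 (0.13), Col18a1 (0.13) and Col14a1 (0.0027). By title with a pseudocount of 64 Col4a6 was at -0.039. Single arrays left out turned the sign by description within these ranges: Col11a1 -0.10 to 0.55, Col17a1 -1.24 to 0.086, Col18a1 -0.69 to 0.012, Col25a1 -0.63 to 1.18, Col27a1 -0.12 to 0.52, Col4a3 -0.56 to 0.12, Col4a6 -0.62 to 0.34 and Col9a3 -0.69 to 0.037. By title the ranges were Col14a1 -0.60 to 0.066, Col18a1 -0.48 to 0.22, Col1a2 -0.79 to 0.31, Col22a1 -0.17 to 0.50, Col27a1 -0.31 to 0.27, Col3a1 -0.89 to 0.72, Col4a1 -0.28 to 0.30, Col4a2 -0.29 to 0.27, Col4a4 -0.72 to 0.20, Col4a5 -0.77 to 0.12, Col4a6 -0.52 to 0.44, Col5a1 -0.24 to 0.36, Col5a2 -0.58 to 0.61, Col6a1 -0.68 to 0.76 and Col6a2 -0.13 to 1.48. The removal of RAG-/- replicate 2 from r and the other Ttr probe sets were chosen after seeing the data.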
